A study of Mus musculus with 6 samples.

Results

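The genes described here are named as encoding proteins of the mitochondrial ribosome. They were taken from the deposited gene table by symbol: every gene whose symbol starts with Mrpl or Mrps followed by a digit, leaving out pseudogene symbols. This gave 78 of the 15469 genes in the table, 49 with a large subunit symbol (Mrpl) and 29 with a small subunit symbol (Mrps). The rule used names only and no measured value. RNA was sequenced in 6 libraries of mouse peritoneal macrophages, phagocytes of the abdominal cavity, that had been sorted for RELM-α on their surface. All mice were of the CAIA model, an abbreviation the labels do not spell out, and the sorted cells were plated in culture before RNA was taken. The title KO marked 3 libraries, whose cells were PU.1-deleted per the labels, and WT marked 3 control libraries. Each library held 17280851 to 18632616 counts. PU.1 is the ETS-family factor encoded by Spi1. The sources used here do not give the method of deletion, the strain and age of the mice, or whether each library had its own animal. The p-values therefore measure only the spread between these libraries, which may be technical.

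Mitochondria keep a small genome that encodes core subunits of the respiratory chain, and they translate it with ribosomes of their own. Every protein of these ribosomes is encoded in the nucleus, made in the cytosol and imported. Some are homologues of bacterial ribosomal proteins and others exist only in mitochondria. Factors of the ETS family such as GABPA, together with NRF1 and YY1, are known for acting on promoters of nuclear genes for mitochondrial proteins, and PU.1 binds a related, purine-rich form of the ETS motif.

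Before the members are described, 3 properties of the libraries matter. In CPM (counts per library size after TMM scaling), Spi1 lay at 276.9, 285.5 and 319.7 in the libraries labelled KO and 323.4, 340.2 and 283.7 in WT (log2 -0.10, edgeR adjusted p = 0.561; 0.04 with total counts only), so every direction below is one between labels. KO replicate 1 stood apart: its log2 CPM correlated across genes at r = 0.902 and 0.922 with the other KO libraries, which correlated at 0.99 with each other, and at 0.955 to 0.959 with WT. Results that rest on it are given with and without it. The macrophage markers Adgre1 and Csf1r lay at 662 CPM or more in every library, and the defining markers of T cells (Cd3e), mast cells (Cpa3) and neutrophils (S100a8) at 6.64 CPM or less. Of 6 large peritoneal macrophage markers, Gata6 was not in the table and the other 5 summed to 4.07 to 5.89 CPM per library. Among the 3 tested, 1, Icam2, was called higher and 0 lower (log2 1.31, edgeR adjusted p = 0.0454), against 2.26% and 1.06% of all genes. Of 8 macrophage markers 1, Csf1r, was called higher and 0 lower (log2 0.79, edgeR adjusted p = 0.0208), against 2.26% and 1.06% of all genes. KO lay above WT without overlap for 3 of the 8 and below it for 2, against 18.4% and 12.6% of all genes. Lyz2 was at 13170, 36710 and 35110 CPM in KO and 29740 to 34030 in WT. S100a8 was lower in KO without overlap (log2 -1.26, edgeR adjusted p = 0.0774, DESeq2 0.00268). Kit, the mast cell marker that was tested, was at 0.661, 1.13 and 0.73 CPM in KO and 0.0582, 0.289 and 0.42 CPM in WT (log2 1.70, edgeR adjusted p = 0.17; 0.0257 without KO replicate 1). These values rest on 12, 22 and 14 reads in KO and 1, 5 and 7 in WT. Of 5 mast cell markers 2 were in the table, and the other, Cpa3, was at 0 in all KO libraries and 0 to 0.0582 CPM in WT. Among 7 platelet markers, edgeR called 3 lower and 0 higher, against 1.06% and 2.26% of all genes. Their summed level was 17.7 to 61.2 CPM in KO and 70.5 to 121.8 in WT. Pf4, the marker with a higher KO mean, made up 44.9, 16.2 and 14.5 CPM of it in KO and 17.6 to 21.8 in WT. None of the 7 was at 0 in all libraries, but Gp9 was at 0 in KO replicates 2 and 3 and Gp1bb in KO replicates 1 and 2. Of 14 cell cycle genes 2 were called higher and 0 lower by edgeR (2.26% and 1.06% of all genes) and 13 higher by DESeq2 (5.73% of all genes). All KO libraries lay above all WT libraries for 12 of the 14, against 18.4% of all genes. Their sum was 443, 992.1 and 941.1 CPM in KO and 489.2 to 512.7 in WT, of which Pcna, the gene with a lower KO mean, made up 255.9, 378.8 and 337.2 CPM in KO and 390 to 414.4 in WT. The 5 fibroblast markers summed to 2.15 CPM in KO replicate 1, 21.2 and 33.4 in the other KO libraries and 5.17 to 8.14 in WT. The part of these other cells and of the cell cycle in the members' values was not tested.

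Many members share an ETS-type sequence near the start of transcription. RefSeq promoters (build GRCm38.p6, 250 bases before to 50 after the start) were matched by gene ID for 69 members, with 75 promoters. The letters CCGGAAG, the core of a GABPA-type ETS motif, occurred on either strand in 26 of these 75 promoters, or 34.7%, against 8.86% of all 32851 promoters. The letters GAGGAAG, as in a PU.1-type motif, occurred in 8 of 75, or 10.7%, against 13.6% of all promoters. Both were searched on both strands, and a single stretch cannot match both. A match describes letters in a window and is not a binding site. The stretches below show 30 bases of the coding strand, 5′ to 3′, with the motif or its reverse complement in capitals, for members that recur in the results. The GABPA-type examples are at chr5:31613937-31613966 (Mrpl33), chr9:105053238-105053267 (Mrpl3), chr11:94653725-94653754 (Mrpl27), chr17:46110967-46110996 (Mrps18a), all on the plus strand, and chr3:95871478-95871507 (Mrps21, minus strand).
Mrpl33: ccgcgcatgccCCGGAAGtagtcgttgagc
Mrpl3: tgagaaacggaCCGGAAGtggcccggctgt
Mrpl27: gtccgcaagacCCGGAAGtagatctatccc
Mrps18a: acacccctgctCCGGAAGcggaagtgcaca
Mrps21: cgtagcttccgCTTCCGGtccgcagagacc

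The PU.1-type letters are shown for Mrps6, the member with the smallest p below, and for Mrps18c, because PU.1 is the factor the labels name as deleted. They lie at chr16:92058354-92058383 and chr5:100798741-100798770, both on the plus strand. The match begins 29 bases after the start in Mrps6 and 7 bases before it in Mrps18c. Mrps18c, Mrps21 and Mrpl43 hold both kinds of letters, the last named after its matches were seen.
Mrps6: tcctctctcgtCTTCCTCtgcgccccgcgt
Mrps18c: atagaaaggaaGAGGAAGggcggagaacca

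Of the GABPA-type matches, 31 in all, 28 began within 100 bases before the start or in the 50 bases after it. The NRF1 motif was found in 3 member promoters, or 4%, against 0.971% of all. YY1 letters (AAGATGGCG) were found in 8, or 10.7%, against 1.4%. The E-box CACGTG was found in 7, or 9.33%, against 7.15%, but in 5 of the 69 members, since overlapping windows of Mrpl2 hold the same match.

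All 78 members were expressed in every library, between 58 and 1032 counts each. Compared per transcript length with the authors' TPM (transcripts scaled to length and depth), the mean over libraries ran from 4.93 to 270.2, and 73 members reached 10. Mrps21, homologue of a bacterial small subunit protein, was highest, at 276.6, 290.3 and 263.3 TPM in KO and 304.7, 270.6 and 215.3 TPM in WT. The large subunit genes Mrpl33, Mrpl52, Mrpl30 and Mrpl42 followed at 152.7, 134.4, 113.2 and 96.3 TPM. After Mrps21, the small subunit symbols with the most transcript were Mrps18c (87.7), Mrps18a (75.6) and Mrps6 (75.2 TPM), and the last 2 of these differed by less than their spread between libraries. The lowest large subunit symbols were Mrpl35 at 4.93 and Mrpl17 at 6.48 TPM, and the lowest small subunit ones Mrps25 at 5.75 and Mrps31 at 12.8 TPM. The order was alike in all libraries, with Spearman's rho of 0.962 to 0.993 over the 78 members for pairs of libraries, a description in which gene length is shared. Large and small subunit symbols had similar medians, 37 and 38.6 TPM. The highest member exceeded the lowest 54.8-fold.

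No member was called between the labels when all 6 libraries were compared. In RNA of whole cell populations, fewer cells of a type and less RNA per cell cannot be told apart. All 78 passed the filter on low counts, and at a Benjamini-Hochberg adjusted p under 0.05 (quasi-likelihood test of edgeR, adjusted over 11424 genes) 0 were higher and 0 lower, against 2.26% and 1.06% of all genes tested (3.32% in all). At an unadjusted p under 0.05, 1 member was higher and 6 were lower in KO, 7 of 78, against 22.7% of all genes. The median log2 difference, KO minus WT, was -0.04 over members and -0.01 over all genes, and the middle 50% of members lay between -0.16 and 0.08 against -0.31 and 0.25 for all genes. No member differed by more than 1 in log2, and the range was -0.60 to 0.31. The 95% interval of this fit, which covers the spread between libraries only, lay within a 2-fold change either way for 76 of 78 members, against 63.7% of all genes. Mrpl1 (-1.52 to 0.32) and Mrpl47 (-1.09 to 0.16) were the exceptions. With the correction for GC content and transcript length described below, some values fell outside these intervals, such as Mrpl32 (0.74, interval -0.53 to 0.52) and Mrps30 (0.63, interval -0.06 to 0.53). Large and small subunit symbols did not stand apart, with medians of -0.04 (49 genes) and -0.01 (29 genes).

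**Figure D1:**
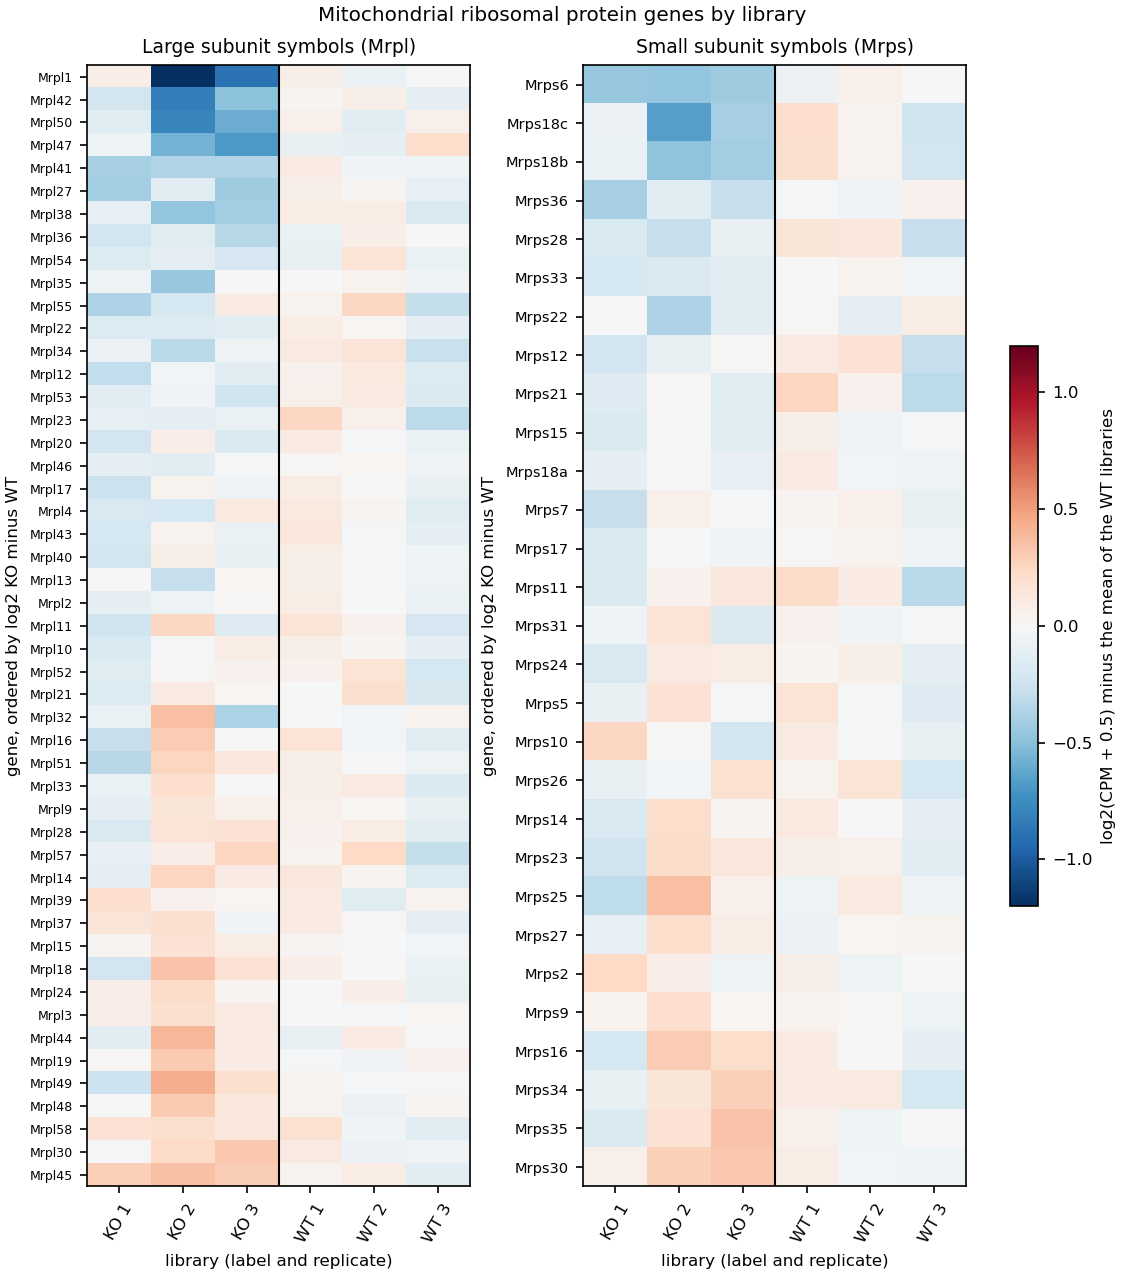
Heat map of the 78 genes (rows, ordered by the fitted log2 difference within each subunit) in 6 libraries (columns); colour is log2(CPM + 0.5) minus the mean of the WT libraries. Most cells are pale, and the darkest blue cells are those of Mrpl1 in KO replicates 2 and 3.

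The groups did not overlap for 13 members. KO was lower for 10 of them, 12.8% against 12.6% of all genes tested, and higher for 3, 3.85% against 18.4%. The balance was the opposite in the authors' TPM, where KO was higher without overlap for 19 members, 24.4% against 31.9% of all genes, and lower for 2, 2.56% against 4.91%. The 10 members lower in CPM included Mrps6, Mrpl41, Mrpl42 and Mrpl27, which had the smallest p on that side.

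Mrps6 (gene ID 121022, chromosome 16, 92058336 to 92112227, GRCm38), a small subunit protein with a bacterial homologue, lay at 21.2, 21.1 and 21.6 CPM in KO, in the order of the replicates, against 27.9, 30.6 and 29.3 CPM in WT. The KO libraries were within 1 CPM of each other and all below the WT libraries. KO averaged 21.3 ± 0.303 CPM and WT 29.3 ± 1.32 CPM (SD, n = 3 each), or 0.728-fold in KO (log2 -0.46, SE 0.0889, edgeR adjusted p = 0.0542). The call was made by DESeq2 (adjusted p = 0.00364; it called 8.7% of genes, 5.73% higher and 2.97% lower), in the authors' deposited table (q = 0.00452, 8.02% of genes) and with a correction for GC content and length (0.0478; 5.24% of genes, 3.47% higher and 1.78% lower). Mrps6 shares its locus with Slc5a3, the inositol transporter gene, and how reads in the shared part were counted is not given. Slc5a3 was at 40.1, 5.96 and 10.5 CPM in KO and 30.8, 38 and 57.3 CPM in WT, with KO replicate 1 inside the WT range. Its difference had the same direction as that of Mrps6 (log2 -1.16, edgeR adjusted p = 0.376). Without KO replicate 1 it was -2.33 (edgeR adjusted p = 0.00254, in a fit that called 49.6% of all genes). The part of shared reads in the Mrps6 values was not tested.

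Mrpl41 (gene ID 107733, chromosome 2, 24972470 to 24975098), a large subunit protein found only in mitochondria, was at 18, 18.4 and 18.5 CPM in KO and 25.5, 23.1 and 23 CPM in WT. Again the groups did not overlap, and KO was at 0.767-fold of WT (log2 -0.38, SE 0.0953, edgeR adjusted p = 0.0898; DESeq2 0.0401; q = 0.0496 in the authors' deposited table). Mrps6 and Mrpl41 were the 2 members past the threshold in that table and by DESeq2.

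Mrpl42 (gene ID 67270, chromosome 10, 95480805 to 95501949), another protein without a bacterial counterpart, was at 25.5, 16.6 and 21.1 CPM in KO and 30.4, 31.3 and 27.6 CPM in WT. The KO libraries were spread more widely than the WT ones (21.1 ± 4.48 against 29.8 ± 1.92 CPM; log2 -0.50, SE 0.173, edgeR adjusted p = 0.164). Mrpl27 (gene ID 94064, chromosome 11, 94653770 to 94661932), whose bacterial homologue sits near the peptidyl transferase centre, was at 19.3, 23.5 and 19.1 CPM in KO and 27.1, 26.5 and 24.1 CPM in WT. That is a log2 difference of -0.33 (SE 0.123, edgeR adjusted p = 0.189). Mrpl27 overlaps Eme1 in the RefSeq annotation, as 20 of the 78 members overlap another gene of the table.

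On the other side, Mrpl45 (gene ID 67036, chromosome 11, 97314923 to 97329920), a large subunit protein near the exit of the nascent chain, was at 32.4, 33.9 and 32.6 CPM in KO and 27.3, 28.2 and 24.3 CPM in WT. All KO libraries were above all WT libraries (33 ± 0.835 against 26.6 ± 2.05 CPM; log2 0.31, SE 0.0978, edgeR adjusted p = 0.136). Mrps30 (gene ID 59054, chromosome 13, 118380110 to 118388124), which despite its symbol is found in the large subunit, was at 16.1, 19 and 19.5 CPM in KO and 16.5, 15 and 14.8 CPM in WT. KO replicate 1 lay within the WT range there (log2 0.24, SE 0.123, adjusted p = 0.304 by edgeR). Mrpl3 (33.1, 35.8 and 33.7 against 31.4, 30.7 and 31.9 CPM) and Mrpl30 (32.5, 38.9 and 41.6 against 35.7, 31.7 and 32.2 CPM), both with bacterial homologues, had log2 differences of 0.13 and 0.18. Of these 2, Mrpl3 showed no overlap between the groups.

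**Figure D2:**
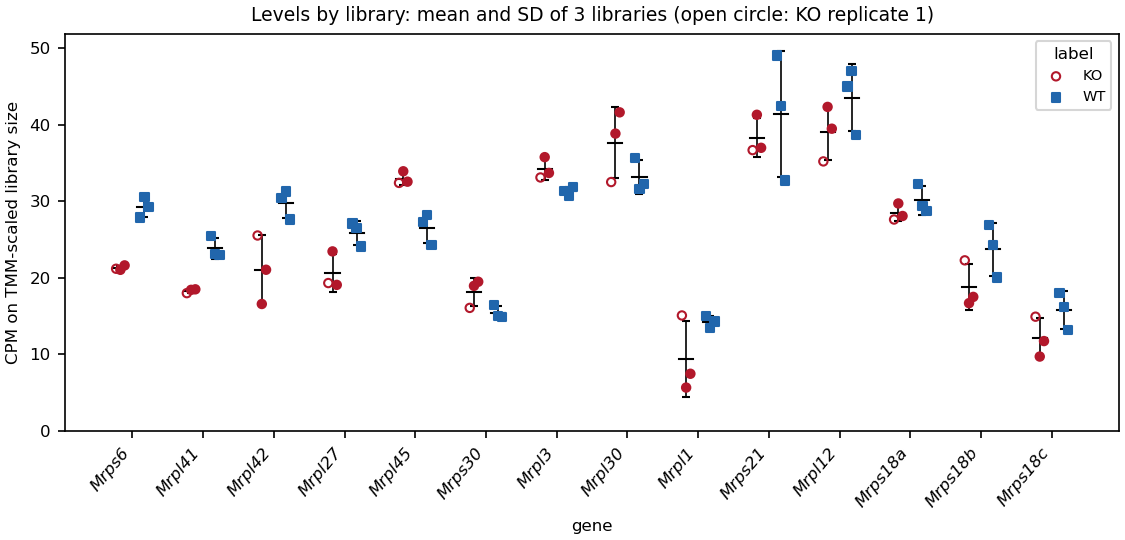
CPM of 14 members by library, with circles for KO (open for replicate 1), squares for WT, and lines for the mean and SD of 3 libraries. Mrps6 and Mrpl41 show tight KO values below WT, while the KO values of Mrpl1 run from 5.65 to 15.1 CPM.

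Several members have roles of their own. Mrpl12, homologue of the bacterial stalk protein and reported to bind the mitochondrial RNA polymerase, was at 39 ± 3.59 CPM in KO and 43.6 ± 4.37 CPM in WT (log2 -0.16, 95% interval -0.45 to 0.14). Mrpl58, a peptidyl-tRNA hydrolase that became part of the large subunit, was at 12.8 ± 0.244 and 11.4 ± 1.41 CPM (log2 0.17, -0.16 to 0.49). Mrps27, a small subunit protein with pentatricopeptide repeats, was at 17.4 ± 1.93 and 16.5 ± 0.723 CPM (log2 0.08, -0.23 to 0.38). Mrps36, now known as a subunit of the 2-oxoglutarate dehydrogenase complex and not of the ribosome, was at 17.4, 20.9 and 18.9 CPM in KO and 22.9, 22.3 and 23.9 CPM in WT. Its groups did not overlap (log2 -0.27, SE 0.108, edgeR adjusted p = 0.209), and RefSeq lists 3 pseudogenes of it whose reads could have been counted with it. The same limit holds for Mrpl27 and Mrpl23, of which RefSeq also lists a pseudogene each.

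The 3 paralogs of one bacterial protein, Mrps18a, Mrps18b and Mrps18c, showed different spreads. Mrps18a, which is found in the large subunit, was at 27.6, 29.7 and 28.1 CPM in KO and 32.3, 29.4 and 28.8 CPM in WT (log2 -0.08, 95% interval -0.31 to 0.15). Mrps18b was at 22.3, 16.7 and 17.5 against 26.9, 24.3 and 20.1 CPM (log2 -0.33, -0.75 to 0.08). Mrps18c was at 14.9, 9.7 and 11.7 against 18, 16.2 and 13.2 CPM (log2 -0.38, -0.89 to 0.12). In the small subunit paralogs KO replicate 1 was the highest KO library and lay inside the WT range.

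Within a label the members varied little. The median coefficient of variation was 6.83% in WT and 10.8% in KO, against 9.72% and 16.4% over all genes tested. A small spread was not particular to them. The median SE of the log2 difference was 0.135 over members and 0.173 over all genes tested. It was 0.133 over cytosolic ribosomal protein genes, 0.137 over nuclear genes of oxidative phosphorylation and 0.103 over proteasome genes. KO replicate 1 differed by more than 1.5-fold from the mean of the other KO libraries for 3.85% of members against 35.3% of all genes tested. These were Mrpl1, Mrpl47 and Mrpl49, of which the last 2 were named after their values were seen. Mrpl1, homologue of the bacterial protein of the mobile ribosomal stalk, had 15.1, 5.65 and 7.45 CPM in KO and 15, 13.4 and 14.3 CPM in WT, with KO replicate 1 above the WT range and the others below it. For Mrpl47, KO replicate 1 had 4.95 CPM against 3.34 and 3.02, and Mrpl49 at 20.8 against 34 and 28.7. Mrpl32, known for being cut by the mitochondrial AAA protease before it joins the ribosome, had the second widest KO range (10, 13.7 and 8.03 CPM) around the WT level (10.5, 10.3 and 10.9). In WT the widest ranges were those of Mrps21 (49.1, 42.5 and 32.7 CPM) and Mrpl23 (24.8, 21.7 and 16.6 CPM). WT replicate 3 was the lowest WT library for 57 of the 78 members.

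Leaving out KO replicate 1 changed the count of calls but left the members below the table as a whole. Without it, 4 members were called higher and 9 lower, 16.7%, while 49.6% of all genes tested were called, 23.6% higher and 26% lower. The higher ones were Mrpl30, Mrpl45, Mrpl49 and Mrps30, with log2 differences of 0.29 to 0.34. The lower ones were Mrpl1 (-1.10, edgeR adjusted p = 0.00082), Mrpl47 and Mrpl50 (both -0.69), Mrpl42 (-0.65), Mrps18c (-0.55), Mrps18b (-0.46), Mrps6 and Mrpl38 (both -0.44) and Mrpl41 (-0.35). The median over members was 0.03 against 0.02 over all genes, and 1 member, Mrpl1, passed a 2-fold difference. Of the members named in these lists, Mrpl49, Mrpl47, Mrpl50 and Mrpl38 were chosen after their values were seen. With each of the other 5 libraries left out in turn, 0 members were called. Only 5 to 15 of all genes were called in those fits, so this 0 does not set the members apart.

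**Figure D3:**
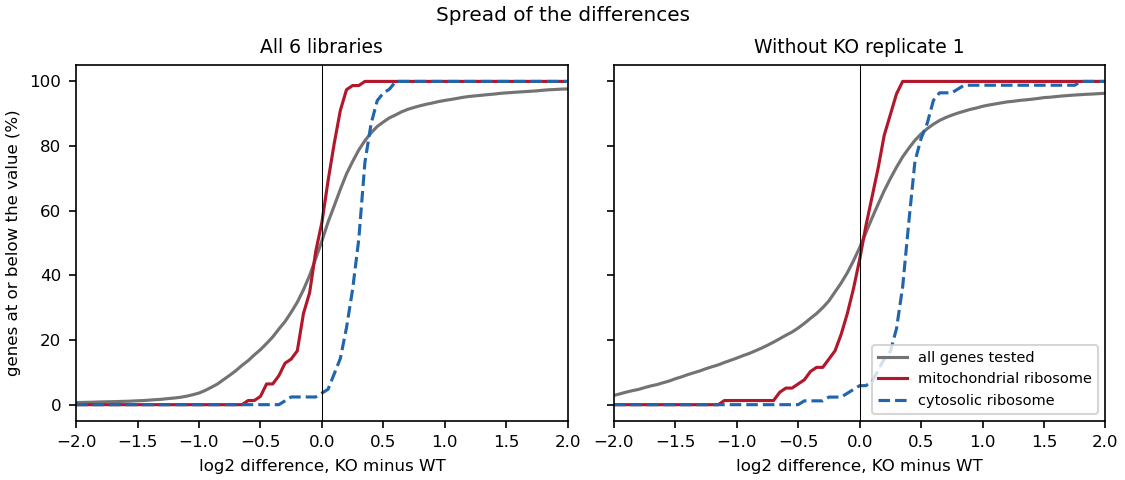
Cumulative share of genes (vertical, %) against the log2 difference, KO minus WT (horizontal), for all genes tested, the mitochondrial ribosomal protein genes and the cytosolic ribosomal protein genes. The curve of the mitochondrial genes is steep around 0 in both panels; that of the cytosolic genes is shifted to the right, with medians of 0.30 and 0.38.

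Several of the members lower without KO replicate 1 have transcripts poor in G and C, such as Mrpl1 (41.4% GC), Mrpl50 (42.3%) and Mrps18c (45%). Over the 78 members, though, the difference was only weakly related to GC content (Pearson's r = 0.08, Spearman's rho = -0.15), unlike over all 11490 genes with a value (0.31 and 0.37). With log2 transcript length, r and rho were 0.15 and 0.36 over members and -0.04 and -0.01 over all genes. All of these are descriptions across genes of the same libraries. When the libraries were corrected for GC content and transcript length with curves fitted to all genes, 21 members were called higher and 6 lower without KO replicate 1, and 51.3% of all genes were called, 30.5% higher and 20.9% lower. Of the 13 calls made without the correction, 8 were made again in the same direction, and 1, Mrpl50, in the opposite one (log2 0.31). Mrpl1 went from -1.10 to 0.04 and Mrpl32 from 0.05 to 1.08. The GC content and length given to a gene were medians over its annotated protein-coding transcripts, 42.2% and 3013 bases for Mrpl32. Whether they fit the transcript expressed in these cells was not tested, so a corrected value of 1 gene may be off. Of the 21 higher calls, 17 were among the 26 members with the lowest GC content, 41.4% to 48.8%, whose median was 0.13 without the correction and 0.37 with it. Mrps6 (-0.50), Mrpl41 (-0.41), Mrps18b (-0.55) and Mrpl38 (-0.43) were called lower in both fits.

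**Figure D4:**
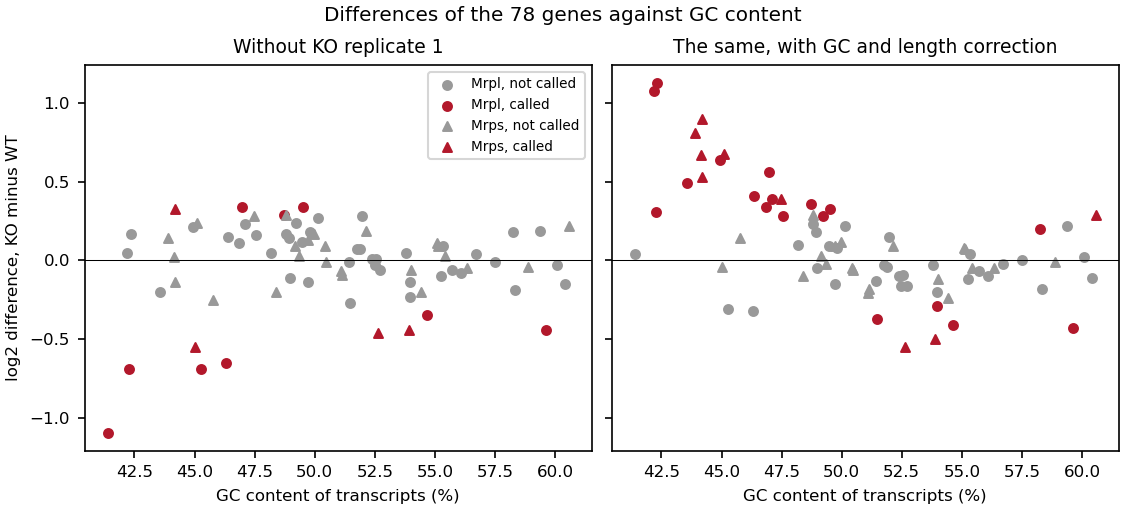
Log2 difference, KO minus WT without KO replicate 1, of the 78 members (circles Mrpl, triangles Mrps; red where called) against the GC content of their transcripts, before (left) and after (right) correction for GC content and length. Members under about 49% GC mostly move upward with the correction, Mrpl32 to 1.08; the highest is Mrpl57 at 1.13.

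The direction of the members' summed level depended on the scale, and the labels overlapped in TMM-scaled CPM but not in TPM. On TMM-scaled library sizes the 78 genes summed to 1615, 1808 and 1736 CPM in KO and 1858, 1810 and 1653 CPM in WT, 1720 ± 97.9 against 1774 ± 107 (SD, n = 3 each; log2 -0.04, p = 0.5, two-sided exact permutation test, where 20 assignments allow no p below 0.1). The highest and the lowest library were thus WT replicate 1 and KO replicate 1. In the authors' TPM the sum was 3798, 3850 and 3789 in KO and 3664, 3672 and 3414 in WT, with KO higher in 3 of 3 libraries (log2 0.09, p = 0.1 by the same exact test, the smallest it can give). The change of scale moved the table too: the median log2 TPM difference was 0.11 over members and 0.13 over all genes tested. Without scaling factors it was 0.10 and 0.13 in counts per total. On each scale the members' median lay beside that of all genes.

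Promoters with and without an ETS-type match had similar differences. Over all 6 libraries the median log2 difference was -0.06 for the 26 members with the GABPA-type letters and -0.01 for the 43 without, and -0.08 for the 8 with the PU.1-type letters against -0.02 for the 61 without. The members with PU.1-type letters ranged from -0.46 (Mrps6) to 0.15. These letters lie in 1 window per start, and nothing follows from them on binding.

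Other genes of mitochondrial translation were likewise not called with all 6 libraries. Over all genes 3.32% were called by edgeR, and 22.7% had an unadjusted p under 0.05. In lists of 5 to 26 genes, 0 calls do not set the genes apart from that 3.32%. Of the 5 ribosome subunits named outside the symbol rule, 0 were called either way by edgeR (0 higher and 1 lower at an unadjusted p under 0.05). Aurkaip1, a small subunit protein, had the smallest p, at 40.1, 49 and 46.1 CPM in KO and 65.5, 58.3 and 50.6 CPM in WT (log2 -0.37, adjusted p = 0.18). Of the 26 assembly factors 0 were called (1 and 0 unadjusted, edgeR), with a median of 0.03. Mettl15, a methyltransferase of the small subunit RNA, was at 1.82, 1.64 and 1.56 against 1.16, 0.866 and 0.601 CPM (log2 0.93, adjusted p = 0.152).

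Of the 14 translation factors tested, 0 were called by edgeR (1 and 0 unadjusted) and the median was -0.18. Oxa1l, which inserts newly made proteins into the inner membrane, was at 55.6, 72.1 and 68.2 against 51, 53.7 and 47.5 CPM (log2 0.36, adjusted p = 0.161). None of the 17 mitochondrial aminoacyl-tRNA synthetases was called (1 and 0 unadjusted, edgeR; median 0.05), and Vars2, which charges tRNA with valine, had the smallest p (log2 0.35, adjusted p = 0.197). Of 6 mitochondrial transcription genes 0 were called (0 and 0 unadjusted, edgeR), with a median of -0.27, and Mterf1b, a transcription termination factor, was at 2.59, 1.13 and 0.99 against 3.14, 3.06 and 2.64 CPM (adjusted p = 0.252). Of 9 regulators, among them Nrf1, Gabpa and Yy1, 0 were called (2 and 0 unadjusted, edgeR), and Myc, a growth regulator, was at 12.2, 16.5 and 14 against 10.9, 9.94 and 10.1 CPM (log2 0.46, adjusted p = 0.144). DESeq2 likewise called 0 genes in each of these 6 lists, against 8.7% of all genes.

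Without KO replicate 1, where 49.6% of all genes were called, some genes of these lists were called too. Of the 6 transcription genes 0 were higher and 4 lower, with a median of -0.46, which became 0.09 with the GC and length correction (1 higher, 0 lower). Mterf1b was among the lower ones (log2 -1.46, edgeR adjusted p = 0.00177; -0.08 with the correction). Of the 14 translation factors 1 was higher, Oxa1l (0.48, edgeR adjusted p = 0.00371), and 5 were lower. Of the 9 regulators 1 was higher, Myc (0.58, edgeR adjusted p = 0.0069), and 1 lower. The assembly factors had 2 higher and 3 lower, the synthetases 1 and 1, and the subunits outside the symbol rule 0 and 1.

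The nearest gene families help to place these values. The 76 tested nuclear genes of oxidative phosphorylation had a median log2 difference of -0.06 and the 38 proteasome genes -0.09, with 0 called in each by edgeR (7 and 10 at an unadjusted p under 0.05, against 22.7% of all genes). The 84 tested cytosolic ribosomal protein genes had a median of 0.30, 81 of them above 0, also with 0 called (31 higher and 0 lower unadjusted). DESeq2 called 1, 3 and 4 genes of these families, against 8.7% of all genes. With all 6 libraries, the interval of the fit lay within a 2-fold change either way for 97.6% of the cytosolic family. It did so for 98.7% of the oxidative phosphorylation genes and 92.1% of the proteasome genes. The members were at 97.4% and all genes at 63.7%. The narrow intervals thus did not set the members apart from these families. Without KO replicate 1, where 49.6% of all genes were called, the cytosolic family had 61 called higher and 1 lower of 85 (median 0.38). The mitochondrial ribosome had 4 and 9 of 78 (0.03), oxidative phosphorylation 8 and 7 of 77 (0.03), and the proteasome 2 and 11 of 38 (-0.04). The share called was thus 16.7% of the members and 19.5% of the oxidative phosphorylation genes. The difference between the families was not tested.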

How the data were processed

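RNA was measured by mRNA sequencing in 6 libraries, 3 titled KO and 3 titled WT. The authors deposited 1 gene table with estimated counts (4.82% to 5.49% of values per library not whole), TPM and FPKM, and, per the file headers, their own log2 fold changes with p-values and q-values. The submitters' processing notes name fastp 0.18.0 and the build GRCm39, while the table's gene starts equal those of RefSeq GRCm38 for 13131 of 15426 matched genes. No aligner, counter or strand setting is named in the sources used here. FPKM was not used.

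Counts were rounded and fitted with edgeR 4.0.16 (R 4.3.3; TMM factors, filterByExpr with a minimum count of 10, robust quasi-likelihood test, group only), with Benjamini-Hochberg adjustment over the 11424 genes tested. CPM are TMM-scaled. TPM were compared on log2(TPM + 0.1), and the summed level with an exact permutation test over 20 assignments. Alternatives used DESeq2 1.42.0, limma 3.58.1 (voom), other scaling, filters and thresholds, each library left out, and offsets for GC content and transcript length (mgcv 1.9.3, GENCODE GRCm38 transcripts). Coordinates in the text are GRCm38.

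Genes are named by rule: members called (at most 12), the 4 with the smallest p in each direction, the 4 highest and 2 lowest by TPM in each subunit, those with roles of their own, the 2 with the widest range within each label at a mean of 10 CPM or more, and 1 gene per related list. Members and lists were chosen with earlier results of these data known. The related lists were subunits outside the symbol rule, assembly factors, translation factors, aminoacyl-tRNA synthetases, transcription genes and regulators. The mitochondrially encoded proteins were not analysed here.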

Additional observations from a re-analysis of the deposited data

How the results depend on the processing

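The count of members called was 0 with all 6 libraries and with RLE or upper-quartile factors, limma-voom, either filter, an adjusted p under 0.01 and the replicate block. It was 2 with DESeq2, 1 with the GC and length correction, 1 with total counts only (Mrpl45, a setting chosen after seeing the data), and 0 to 13 with 1 library left out (13 without KO replicate 1). It was 27 with that library left out and the correction together. Over all genes, 379 calls became 1344 with DESeq2, 1008 with total counts only, 229 at a mean of at least 10 CPM, 15 at an adjusted p under 0.01, 599 with the correction, 5994 with the correction and without KO replicate 1, and 5 to 5793 with 1 library left out (KO replicate 1 gave 5793, KO replicate 2 gave 15, KO replicate 3 gave 11, and the WT libraries gave 14, 5 and 7). With the replicate block 0 genes were called, and 18 with the block and the correction. Deviations from the group means correlated at -0.162, 0.246 and -0.271 between same-numbered libraries. With every WT library, KO replicate 1 had the opposite sign to the other KO libraries (0.347 against -0.343 and -0.271 for WT replicate 3). These correlations therefore cannot tell whether same-numbered libraries were paired. The cause of the changes in the number of calls was not tested. The median over members moved from -0.04 to 0.10 with total counts only. The summed level, at -0.04, reversed to 0.01 with upper-quartile factors, 0.10 with total counts only, 0.09 in TPM and 0.00 without KO replicate 1 (range with 1 library left out -0.09 to 0.00). The log2 difference changed sign with total counts only for the named genes Mrpl17 (0.05), Mrpl23 (0.02), Mrpl32 (0.14), Mrpl52 (0.10), Mrps18a (0.06), Mrps21 (0.03), Mrps31 (0.13) and Spi1 (0.04), and with upper-quartile factors for Mrpl32 (0.06), Mrpl52 (0.02) and Mrps31 (0.04). It changed without KO replicate 1 for Mrpl17 (0.01), Mrpl32 (0.05), Mrpl52 (0.04) and Mrps31 (0.02), without KO replicate 2 for Mrpl33 (-0.07), Mrps25 (-0.13) and Mrps27 (-0.02), without KO replicate 3 for Mrpl32 (0.13) and Mrps31 (0.03), without WT replicate 2 for Mrpl52 (0.02), and without WT replicate 3 for Mrpl32 (0.01) and Mrpl33 (-0.05). It changed with the correction for Mrpl32 (0.74), Mrpl35 (0.27) and Mrps31 (0.44), with the correction and replicate block for Mrpl32 (0.59), Mrpl35 (0.25) and Mrps31 (0.40), and with the correction and without KO replicate 1 for Mrpl1 (0.04), Mrpl32 (1.08), Mrpl35 (0.49) and Mrps31 (0.67). Mrpl32 also changed with no filter (0.00), and at a mean of at least 10 CPM so did Mrpl32 (0.02) and Mrps31 (0.01). With 1 library left out, the range was -0.17 to 0.01 for Mrpl17, -0.25 to 0.13 for Mrpl32, -0.07 to 0.11 for Mrpl33, -0.14 to 0.04 for Mrpl52, -0.13 to 0.24 for Mrps25, -0.02 to 0.17 for Mrps27 and -0.14 to 0.03 for Mrps31.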
